A study of Mus musculus with 12 samples.

Results

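Costimulatory receptors are surface proteins that add to the signal of the T cell antigen receptor. Described here are 7 genes of this kind: Icos, Cd28, Cd27, Tnfrsf4, Tnfrsf9, Tnfrsf18 and Cd226. Icos and Cd28 belong to the CD28 family of the immunoglobulin superfamily, and both proteins recruit phosphatidylinositol 3-kinase. Cd27, Tnfrsf4 (the gene of OX40), Tnfrsf9 and Tnfrsf18 (the gene of GITR) encode members of the tumour necrosis factor (TNF) receptor family, which signal through TRAF adaptor proteins to NF-kB. Cd226 encodes an immunoglobulin superfamily receptor for nectin-like ligands. In mouse CD4 T cells Cd28 and Cd27 are known to be present on resting cells, Icos and Tnfrsf4 to be induced after antigen contact, and Tnfrsf18, Tnfrsf4 and Tnfrsf9 to be high on regulatory T cells and activated cells. ICOS is also known as a receptor of follicular helper T cells.

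All probe sets to which the platform annotation gives 1 of these symbols as the single gene were taken, which made 12 of the 45101 probe sets on the array and 7 of the 18193 named genes with a probe set. Icos had 3 probe sets, Tnfrsf9 had 3, Cd28 had 2, and Cd27, Tnfrsf4, Tnfrsf18 and Cd226 had 1 each. The rule that picked probe sets used symbols and no measured value, but the 7 genes were themselves chosen with earlier results of these data known.

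CD4 T cells were sorted from the spleens of female MRL/Faslpr mice and their total RNA was hybridised to 12 Affymetrix arrays, with 3 arrays for each of 4 populations. Every mouse, naive donors included, carried the lpr allele of Fas, the gene of a death receptor, on the lupus-prone MRL background. All cells were gated TCRb+ CD4+ B220-. Mice aged 16 to 24 weeks gave the CD44+ populations CD62Llo PSGL1lo, CD62Llo PSGL1hi and CD62Lhi PSGL1hi, where PSGL1, encoded by Selplg, is a ligand of selectins. Mice aged 6 to 8 weeks gave the naive population, CD62Lhi CD44lo, so age and population cannot be told apart in any comparison with naive cells. The titles label the arrays technical replicates and the design text describes 3 independent sorts. The p-values therefore measure only the spread between these arrays. For CD62Llo PSGL1hi the description field gives a gate that conflicts with the titles and the design; the gate of the titles was used.

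The deposited value of a probe set on an array is a linear ratio to that probe set's own median over the 12 arrays, so a value of 1 is the middle array. Such ratios compare arrays for 1 probe set and cannot rank genes by abundance, show whether a gene was detected, or place a marker at 0. The median ratio of an array ran from 0.967, on CD62Llo PSGL1lo replicate 2, to 1.02, on naive replicate 1. Selplg averaged 0.133 ± 0.0182 (SD, n = 3) in CD62Llo PSGL1lo cells and 0.993 ± 0.0955 in CD62Llo PSGL1hi cells, and Cd44 averaged between 0.870 and 1.27 in the CD44+ populations against 0.0791 in naive cells. Both genes followed the gates. Cd4 averaged 1.16 in both CD62Llo populations, 0.774 in CD62Lhi PSGL1hi cells and 0.742 in naive cells.

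Among the 12 probe sets, 9 differed among the populations in limma's F test at an adjusted p under 0.05, and they covered 5 of the 7 genes. Over all 45037 probe sets tested the share called was 23.7%. The 3 probe sets not called were those of Cd27 (adjusted p = 0.289) and Cd226 (adjusted p = 0.0814) and the Tnfrsf9 probe set 1421481_at (adjusted p = 0.814). Icos, Cd28, Tnfrsf4, Tnfrsf18 and the other Tnfrsf9 probe sets were higher in each CD44+ population than in naive cells. For CD62Llo PSGL1lo cells, the Tnfrsf18 and Tnfrsf9 calls against naive did not hold in every alternative fit. Within the CD44+ populations, Icos and Cd28 did not pass the test in any comparison. Tnfrsf18, Tnfrsf4 and the same Tnfrsf9 probe sets were lower in CD62Llo PSGL1lo cells when set against CD62Llo PSGL1hi cells. The Tnfrsf4 call there was lost in some alternative fits. In RNA from sorted pools, fewer cells of a type and less RNA per cell cannot be told apart.

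**Figure D1:**
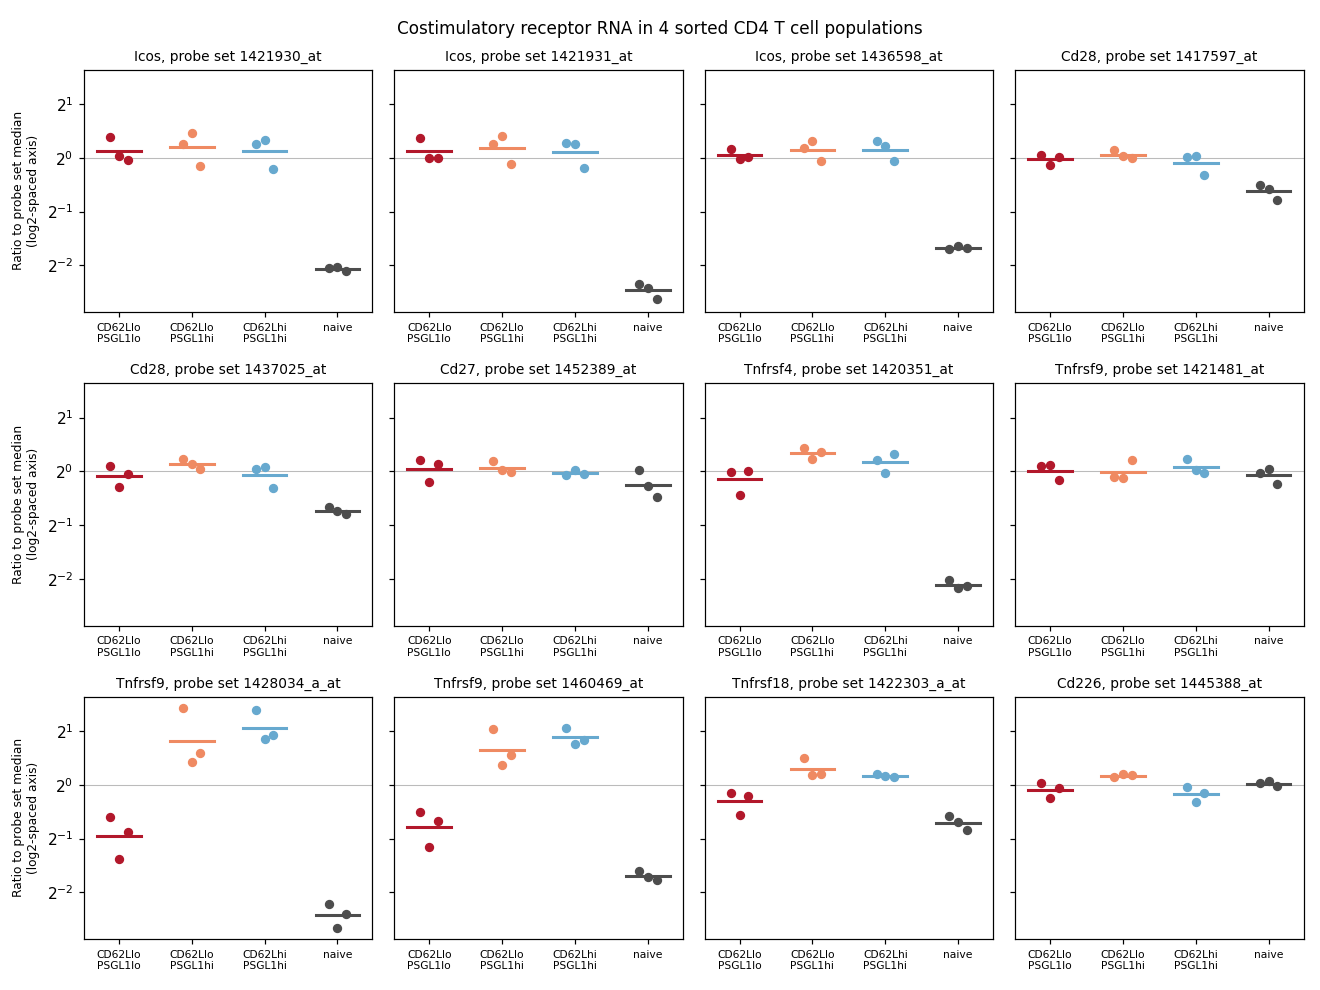
Ratio to the probe set's median over 12 arrays (vertical, log2-spaced axis) for each of the 12 receptor probe sets in the CD62Llo PSGL1lo, CD62Llo PSGL1hi, CD62Lhi PSGL1hi and naive populations. Points are arrays and bars are means of 3 arrays on the log2 scale. The naive arrays lie below all CD44+ arrays for Icos, Cd28, Tnfrsf4, Tnfrsf18 and both moving Tnfrsf9 probe sets, and the CD62Llo PSGL1lo arrays lie below the PSGL1hi arrays for Tnfrsf9 (1428034_a_at and 1460469_at) and Tnfrsf18.

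Icos encodes the inducible receptor whose ligand, ICOSL, is carried by B cells and other antigen-presenting cells. The probe set 1421930_at read 1.315, 1.023 and 0.977 in CD62Llo PSGL1lo cells. It read 1.196, 1.381 and 0.905 in CD62Llo PSGL1hi cells and 1.196, 1.263 and 0.863 in CD62Lhi PSGL1hi cells. In naive cells it read 0.242, 0.245 and 0.233. The 9 CD44+ arrays overlapped across their 3 populations, and all of them lay above the naive arrays. Against naive cells the log2 difference was 2.19 ± 0.17 (SE) in CD62Llo PSGL1lo cells, a 4.57-fold ratio (limma, adjusted p = 3.20e-07). It was 2.25 ± 0.17 in CD62Llo PSGL1hi cells (4.77-fold, adjusted p = 3.33e-07) and 2.19 ± 0.17 in CD62Lhi PSGL1hi cells (4.55-fold, adjusted p = 5.35e-07). After quantile normalization, which gives all arrays the same spread of values, these 3 differences were between 1.19 and 1.26 and still passed (adjusted p from 0.000336 to 0.000550). Over probe sets the log2 values had an SD of 0.200 to 0.399 on the CD44+ arrays, against 0.460 to 0.467 on the naive arrays.

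The other Icos probe sets also stepped up from naive cells in every CD44+ population. Probe set 1421931_at was 6.00-, 6.25- and 5.97-fold above naive in CD62Llo PSGL1lo, CD62Llo PSGL1hi and CD62Lhi PSGL1hi cells, with naive readings of 0.163 to 0.198. Probe set 1436598_at was 3.32-, 3.52- and 3.55-fold above naive in the same populations, with naive readings of 0.307 to 0.321. After quantile normalization their log2 differences from naive were 1.36 to 1.43 and 0.96 to 1.06. The pairs of Icos probe sets correlated at r = 0.996 to 0.998 over the 12 arrays, which share the large step between naive and CD44+ arrays.

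Between the CD44+ populations, Icos differences were small next to their error. CD62Llo PSGL1lo minus CD62Llo PSGL1hi was -0.06 ± 0.17 for 1421930_at, with a 95% interval of -0.43 to 0.31 (adjusted p = 0.923). CD62Llo PSGL1hi minus CD62Lhi PSGL1hi was 0.07 ± 0.17, with an interval of -0.30 to 0.44 (adjusted p = 0.956). CD62Llo PSGL1lo minus CD62Lhi PSGL1hi was 0.00 ± 0.17, with an interval of -0.37 to 0.37 (adjusted p = 0.995). Differences larger than these bounds lie outside the intervals, and smaller ones were not detectable with 3 arrays. Within a replicate number, CD62Llo PSGL1lo minus CD62Llo PSGL1hi was 0.14, -0.43 and 0.11, so the arrays did not share a direction.

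Cd28 encodes the receptor for CD80 and CD86 on antigen-presenting cells. On the lead probe set 1417597_at it read 1.035, 0.916 and 1.006 in CD62Llo PSGL1lo cells, 1.104, 1.021 and 0.994 in CD62Llo PSGL1hi cells and 1.006, 1.021 and 0.799 in CD62Lhi PSGL1hi cells. The naive readings were 0.705, 0.672 and 0.580. All CD44+ arrays were above the naive arrays, by less than for Icos on this scale. The fold over naive was 1.51 in CD62Llo PSGL1lo cells (adjusted p = 0.00160), 1.60 in CD62Llo PSGL1hi cells (adjusted p = 0.000748) and 1.44 in CD62Lhi PSGL1hi cells (adjusted p = 0.00500). Probe set 1437025_at gave 1.56-, 1.82- and 1.59-fold in the same order of populations (adjusted p from 0.000172 to 0.00159), and correlated with the lead at r = 0.974 over 12 arrays. Quantile normalization lowered its log2 difference between CD62Lhi PSGL1hi and naive cells to 0.44 ± 0.11 (adjusted p = 0.0151), against 0.67 ± 0.12 without it.

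Cd28 did not pass the test between CD44+ populations on either probe set. Its mean level ran in the order CD62Llo PSGL1hi, CD62Llo PSGL1lo, CD62Lhi PSGL1hi on the lead, and each neighbouring pair overlapped. On 1437025_at CD62Llo PSGL1lo minus CD62Llo PSGL1hi was -0.22 ± 0.12 (limma adjusted p = 0.419), and CD62Llo PSGL1hi minus CD62Lhi PSGL1hi was 0.20 ± 0.12 (limma adjusted p = 0.702).

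Tnfrsf4 encodes OX40, a receptor for the ligand encoded by Tnfsf4. It read 0.996, 0.740 and 1.004 in CD62Llo PSGL1lo cells and 1.357, 1.174 and 1.276 in CD62Llo PSGL1hi cells. It read 1.152, 0.979 and 1.258 in CD62Lhi PSGL1hi cells and 0.247, 0.221 and 0.227 in naive cells. The naive arrays were apart from all others, and the CD62Llo PSGL1lo arrays lay below the CD62Llo PSGL1hi arrays but overlapped with CD62Lhi PSGL1hi. Tnfrsf4 was 3.91-fold above naive in CD62Llo PSGL1lo cells (log2 1.97 ± 0.13, adjusted p = 5.94e-08), 5.47-fold in CD62Llo PSGL1hi cells (adjusted p = 8.48e-09) and 4.86-fold in CD62Lhi PSGL1hi cells (adjusted p = 2.18e-08). After quantile normalization the log2 differences from naive were 0.97, 1.53 and 1.28 for those populations, all still past the threshold.

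CD62Llo PSGL1lo minus CD62Llo PSGL1hi was -0.49 ± 0.13 for Tnfrsf4 (1.40-fold lower, limma adjusted p = 0.0336), and it was lower within all 3 replicate numbers, at -0.45, -0.67 and -0.35. This call rested on the full set of arrays. The adjusted p was 0.139 without CD62Llo PSGL1hi replicate 1, 0.0988 without CD62Llo PSGL1hi replicate 3, 0.105 without CD62Llo PSGL1lo replicate 2, 0.0506 without naive replicate 2 and 0.0511 without naive replicate 3. It was 0.0869 when only these 2 populations were fitted, and the difference stayed between -0.34 and -0.56 in the fits that left out an array. CD62Llo PSGL1lo minus CD62Lhi PSGL1hi was -0.31 ± 0.13 (adjusted p = 0.174), and CD62Llo PSGL1hi minus CD62Lhi PSGL1hi was 0.17 ± 0.13 (adjusted p = 0.772).

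Tnfrsf9 encodes the TNF receptor family member also called CD137. Its 3 probe sets disagreed. Probe set 1428034_a_at read 0.657, 0.387 and 0.544 in CD62Llo PSGL1lo cells and 2.703, 1.343 and 1.500 in CD62Llo PSGL1hi cells. It read 2.635, 1.809 and 1.892 in CD62Lhi PSGL1hi cells and 0.215, 0.158 and 0.189 in naive cells. The populations fell on 3 separate steps, with the PSGL1hi arrays highest, the CD62Llo PSGL1lo arrays lower and the naive arrays lowest. Probe set 1460469_at had the same steps, reading 0.707, 0.450 and 0.626 in CD62Llo PSGL1lo cells, 2.064, 1.293 and 1.468 in CD62Llo PSGL1hi cells, 2.087, 1.696 and 1.781 in CD62Lhi PSGL1hi cells and 0.329, 0.306 and 0.293 in naive cells. The 2 probe sets correlated at r = 0.996 over 12 arrays and again over the 9 CD44+ arrays.

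The remaining Tnfrsf9 probe set, 1421481_at, read from 0.848 to 1.166 over all 12 arrays with every pair of populations overlapping. It correlated with the others at r = 0.287 and 0.296. It is the lead probe set by the annotation rule, since it alone has a curated RefSeq accession, and none of its 6 differences passed the test.

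CD62Llo PSGL1lo minus CD62Llo PSGL1hi was -1.77 ± 0.25 for 1428034_a_at (3.40-fold lower, adjusted p = 0.000332) and -1.43 ± 0.18 for 1460469_at (2.70-fold lower, adjusted p = 0.000108). Within replicate numbers 1428034_a_at differed by -2.04, -1.80 and -1.46. CD62Llo PSGL1lo minus CD62Lhi PSGL1hi was -2.01 ± 0.25 (4.02-fold lower, adjusted p = 7.24e-05) and -1.66 ± 0.18 (3.16-fold lower, adjusted p = 1.88e-05) for the same probe sets. CD62Llo PSGL1hi minus CD62Lhi PSGL1hi was -0.24 ± 0.25 (adjusted p = 0.857) and -0.23 ± 0.18 (adjusted p = 0.782).

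Against naive cells, 1428034_a_at was 2.78-fold higher in CD62Llo PSGL1lo cells (adjusted p = 0.000580), 9.47-fold in CD62Llo PSGL1hi cells (adjusted p = 4.02e-07) and 11.2-fold in CD62Lhi PSGL1hi cells (adjusted p = 2.31e-07). Probe set 1460469_at was 1.89-, 5.10- and 5.98-fold higher in the same populations. After quantile normalization the CD62Llo PSGL1lo differences from naive did not pass. They were 0.32 ± 0.34 (limma adjusted p = 0.706) and 0.17 ± 0.22 (limma adjusted p = 0.777) on the log2 scale, against 1.48 ± 0.25 and 0.92 ± 0.18 without it. That step gives the naive arrays, whose values spread most, the same spread as the CD44+ arrays, and so bears on every difference from naive. The values are ratios to a median over all arrays, most of them CD44+. The wider spread of the naive arrays thus follows in part from the reference. In CD62Llo PSGL1lo against naive cells, Icos 1421930_at fell from 2.19 to 1.19 and Tnfrsf4 from 1.97 to 0.97. That fit therefore cannot decide whether the Tnfrsf9 rise in CD62Llo PSGL1lo cells holds. Quantile normalization kept the calls against naive in both PSGL1hi populations.

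Tnfrsf18 encodes GITR. It read 0.899, 0.677 and 0.867 in CD62Llo PSGL1lo cells and 1.414, 1.129 and 1.157 in CD62Llo PSGL1hi cells. It read 1.149, 1.115 and 1.101 in CD62Lhi PSGL1hi cells and 0.668, 0.618 and 0.559 in naive cells. Both PSGL1hi populations lay above CD62Llo PSGL1lo, as for Tnfrsf9 but with smaller steps, and the lowest CD62Llo PSGL1lo array came close to the highest naive array, at 0.677 against 0.668. CD62Llo PSGL1lo minus CD62Llo PSGL1hi was -0.60 ± 0.13 (1.52-fold lower, adjusted p = 0.00650), with -0.65, -0.74 and -0.42 within replicate numbers. CD62Llo PSGL1lo minus CD62Lhi PSGL1hi was -0.47 ± 0.13 (1.39-fold lower, adjusted p = 0.0229), and the adjusted p was 0.0742 without CD62Lhi PSGL1hi replicate 1, 0.0542 without CD62Lhi PSGL1hi replicate 2, 0.0828 without CD62Llo PSGL1lo replicate 2 and 0.0732 with only those 2 populations fitted.

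Tnfrsf18 was 2.00-fold above naive in CD62Llo PSGL1hi cells (adjusted p = 4.74e-05) and 1.83-fold in CD62Lhi PSGL1hi cells (adjusted p = 0.000178). In CD62Llo PSGL1lo cells it was 1.32-fold above naive (log2 0.40 ± 0.13, adjusted p = 0.0372). That call ended in 6 alternatives. The adjusted p was 0.129 without CD62Llo PSGL1lo replicate 1, 0.128 without CD62Llo PSGL1lo replicate 3, 0.0908 without naive replicate 2 and 0.151 without naive replicate 3. It was 0.0714 with only the 2 populations and 0.359 after quantile normalization, where the difference was 0.20 ± 0.12.

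Cd27 encodes the receptor for CD70. It read 1.152, 0.872 and 1.093 in CD62Llo PSGL1lo cells, 1.138, 1.018 and 0.987 in CD62Llo PSGL1hi cells, 0.954, 1.021 and 0.972 in CD62Lhi PSGL1hi cells and 1.013, 0.824 and 0.714 in naive cells. Every pair of populations overlapped. The differences from naive were 0.29 ± 0.14 in CD62Llo PSGL1lo cells (adjusted p = 0.160), 0.31 ± 0.14 in CD62Llo PSGL1hi cells (adjusted p = 0.139) and 0.22 ± 0.14 in CD62Lhi PSGL1hi cells (adjusted p = 0.327). Naive replicate 1 was the highest naive array. Without it the adjusted p was 0.0437 in CD62Llo PSGL1lo cells and 0.0397 in CD62Llo PSGL1hi cells, with differences of 0.43 and 0.45, and without CD62Llo PSGL1lo replicate 2 it was 0.0413 in CD62Llo PSGL1lo cells, with a difference of 0.42.

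Cd226 encodes DNAM-1, whose ligands are CD155 (Pvr) and nectin-2. It read 1.018, 0.840 and 0.961 in CD62Llo PSGL1lo cells, 1.102, 1.144 and 1.136 in CD62Llo PSGL1hi cells, 0.973, 0.806 and 0.896 in CD62Lhi PSGL1hi cells and 1.020, 1.052 and 0.982 in naive cells. The 3 CD62Llo PSGL1hi arrays were above all 9 others. The size of the step was small, and no pairwise comparison passed. CD62Llo PSGL1hi minus CD62Lhi PSGL1hi was 0.34 ± 0.10 (unadjusted p = 0.00431, limma adjusted p = 0.169), and CD62Llo PSGL1lo minus CD62Llo PSGL1hi was -0.27 ± 0.10 (limma adjusted p = 0.148).

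**Figure D2:**
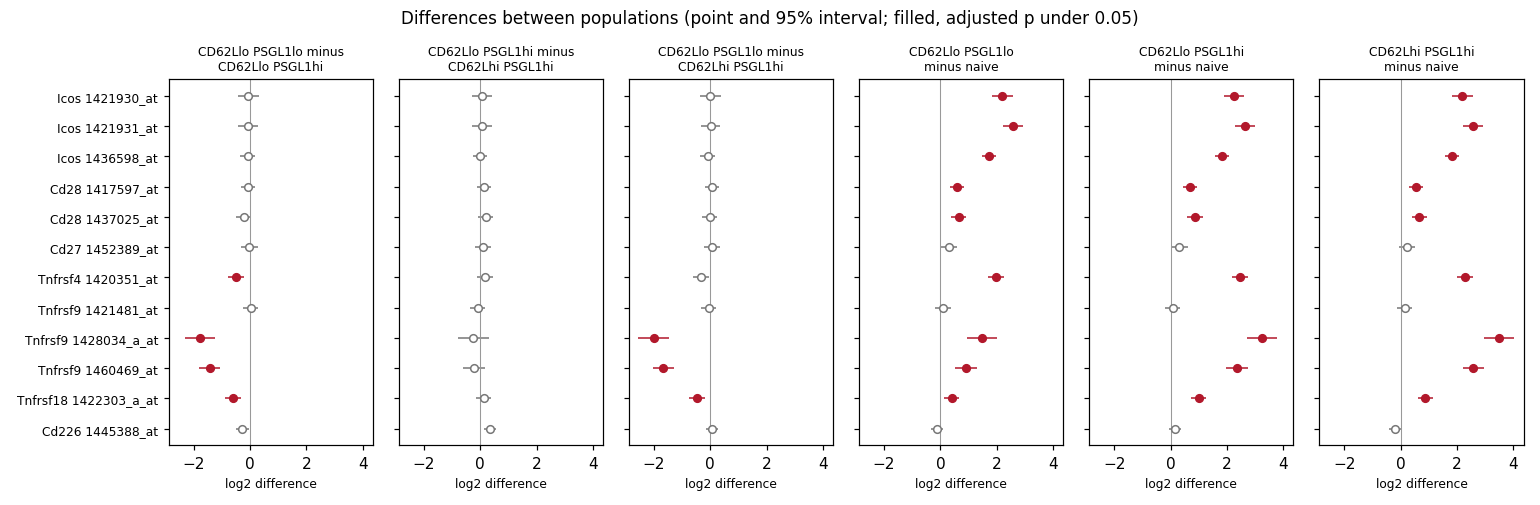
Log2 difference (horizontal) of each receptor probe set in 6 comparisons of populations, with 95% intervals of the limma fit on 12 arrays; filled points have an adjusted p under 0.05. The differences from naive cells are filled for 9 of 12 probe sets in each of the 3 right panels, 4 are filled between CD62Llo PSGL1lo and CD62Llo PSGL1hi cells, and none is filled between CD62Llo PSGL1hi and CD62Lhi PSGL1hi cells.

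Counted over the receptors, CD62Llo PSGL1lo against CD62Llo PSGL1hi cells gave 4 of 12 probe sets lower and 0 higher, from 3 genes. Over all probe sets 8.38% were called in that comparison, 3.41% higher and 4.97% lower. The median difference of the 12 was -0.15, beside 0.002 over all probe sets. CD62Llo PSGL1hi against CD62Lhi PSGL1hi cells gave 0 of 12 called by limma, where 1.23% of all probe sets were called, 0.395% higher and 0.839% lower, and of the 12 only Cd226 had an unadjusted p under 0.05. With the replicate number as a block, 1089 of all probe sets were called in that comparison, against 556 without the block, and again 0 of the 12. CD62Llo PSGL1lo against CD62Lhi PSGL1hi cells gave 3 of 12 lower and 0 higher, where 11.6% of all probe sets were called, 5.37% higher and 6.27% lower. These 3 comparisons share populations and are not independent of each other.

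Against naive cells, 9 of 12 receptor probe sets from 5 of 7 genes were higher and 0 lower in each CD44+ population. After quantile normalization 6 were higher in CD62Llo PSGL1lo cells, without Tnfrsf18 and both Tnfrsf9 probe sets, and 9 in each PSGL1hi population. The limit that the reference sets on that fit, given for Tnfrsf9, applies here too. Of all 45037 probe sets, that fit called 3323 higher and 2993 lower in CD62Llo PSGL1lo cells. It called 3837 higher and 2955 lower in CD62Llo PSGL1hi cells, and 3093 higher and 2613 lower in CD62Lhi PSGL1hi cells. The shares and medians that follow are from the fit without quantile normalization. The share of all probe sets called higher was 9.53% for CD62Llo PSGL1lo cells (10.6% lower, 20.1% in either direction), 9.10% for CD62Llo PSGL1hi cells (8.16% lower, 17.3% in either direction) and 8.60% for CD62Lhi PSGL1hi cells (8.66% lower, 17.3% in either direction). The median differences of the 12 probe sets were 0.78, 1.41 and 1.35 in that order of populations, beside -0.052, -0.054 and -0.046 over all probe sets. The 3 comparisons share the same naive arrays.

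**Figure D3:**
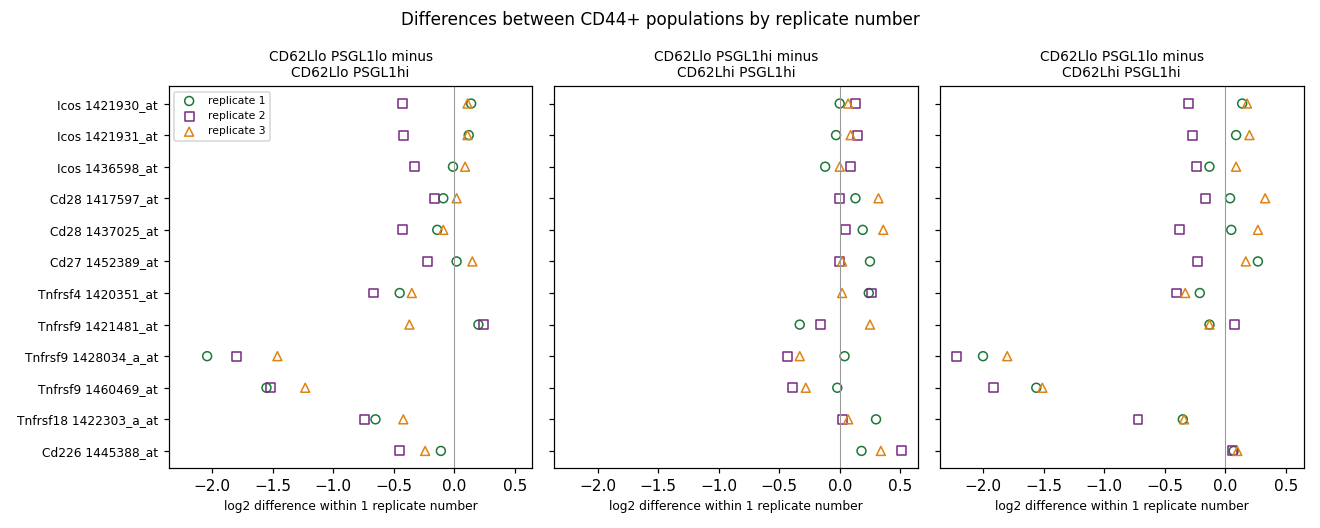
Log2 difference within a replicate number (horizontal) for each receptor probe set between the CD44+ populations; circles, squares and triangles are replicates 1, 2 and 3. Tnfrsf9 (1428034_a_at and 1460469_at), Tnfrsf18 and Tnfrsf4 lie left of 0 for all 3 numbers in the comparison of CD62Llo PSGL1lo with CD62Llo PSGL1hi cells, while Icos 1421930_at lies at 0.14, -0.43 and 0.11.

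Over the 9 CD44+ arrays Tnfrsf18 correlated with Tnfrsf9 1428034_a_at at r = 0.936 and with Tnfrsf4 at r = 0.907, while the 3 Icos probe sets correlated with Tnfrsf9 1428034_a_at at r = 0.133 to 0.398 and with Tnfrsf4 at r = -0.073 to 0.132. These values describe 9 arrays that fall into 3 populations, and Tnfrsf9, Tnfrsf18 and Tnfrsf4 were singled out for the step on the CD62Llo PSGL1lo arrays that these values include. Tnfrsf4 and Tnfrsf18 are neighbours on mouse chromosome 4, with Tnfrsf4 at chr4:156013595-156016613 and Tnfrsf18 at chr4:156026322-156028894, 9.71 kb apart (RefSeq, GRCm38.p6). Tnfrsf9 lies on the same chromosome at chr4:150920155-150946104. Cd28 and Icos flank Ctla4 on chromosome 1, with Cd28 at chr1:60746388-60773359, Ctla4 at chr1:60909025-60915832 and Icos at chr1:60960773-61000322. Cd27 is at chr6:125232620-125237136.

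RefSeq promoter windows were matched for Cd27, Tnfrsf4, Tnfrsf9 and Tnfrsf18, with 5 windows in all because Tnfrsf9 has 2 annotated starts. The 250 bases before each start of Tnfrsf9 and of Tnfrsf18 are shown 5′ to 3′ on the plus strand of GRCm38.p6. The windows of Cd27 and Tnfrsf4 are not shown, although Tnfrsf4 was also lower in CD62Llo PSGL1lo against CD62Llo PSGL1hi cells. Capitals mark letters that match the NF-kB motif or the AP-1 motif TGANTCA. The first Tnfrsf9 window is chr4:150919905-150920154, the second is chr4:150927749-150927998, inside the span of the gene, and the Tnfrsf18 window is chr4:156026072-156026321.
Tnfrsf9 first start: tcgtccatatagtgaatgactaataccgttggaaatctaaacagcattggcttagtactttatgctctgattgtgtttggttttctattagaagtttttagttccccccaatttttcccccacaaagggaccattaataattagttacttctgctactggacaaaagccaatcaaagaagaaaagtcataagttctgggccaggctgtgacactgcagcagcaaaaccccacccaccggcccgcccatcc
Tnfrsf9 second start: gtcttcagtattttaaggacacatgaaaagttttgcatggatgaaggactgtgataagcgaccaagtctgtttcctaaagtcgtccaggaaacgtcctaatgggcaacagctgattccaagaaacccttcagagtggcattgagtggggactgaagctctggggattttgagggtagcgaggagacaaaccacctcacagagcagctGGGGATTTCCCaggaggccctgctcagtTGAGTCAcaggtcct
Tnfrsf18: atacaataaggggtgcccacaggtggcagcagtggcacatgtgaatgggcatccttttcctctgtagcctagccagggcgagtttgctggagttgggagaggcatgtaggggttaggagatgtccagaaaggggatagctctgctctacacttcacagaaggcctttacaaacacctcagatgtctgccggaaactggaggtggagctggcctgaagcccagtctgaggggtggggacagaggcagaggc

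The second Tnfrsf9 window held 2 overlapping NF-kB matches, 43 and 42 bases before the start, and 1 AP-1 match 15 bases before it. Both strands were searched. Of 32851 windows of the same length, 3.90% held an NF-kB match and 6.75% an AP-1 match. The other 4 windows held neither, and none of the 5 held the forkhead motif GTAAACA, which 3.17% of all windows held. The core NFAT letters GGAAA were found in all 5 windows and in 55.6% of all windows. Both NF-kB matches overlap 1 of the 3 NFAT core matches of that Tnfrsf9 window. A match is only a run of letters.

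By a fixed rule, the 3 named genes whose lead probe sets correlated best with each receptor over the 12 arrays were listed. For Icos these were Pls3 (r = 0.993), Grhl1 (r = 0.991) and Ighm (r = 0.991). All of them had their lowest geometric mean ratio (the mean log2 value turned back to a ratio) in naive cells, from 0.087 to 0.187. For Tnfrsf4 they were Capg and Slc45a4 (r = 0.994 each) and Unc119 (r = 0.991). For Tnfrsf18 they were Icam1 (r = 0.982), St14 (r = 0.981) and Hgsnat (r = 0.978). Icam1 had geometric mean ratios of 0.71 in CD62Llo PSGL1lo cells, 1.488 in CD62Llo PSGL1hi cells, 1.275 in CD62Lhi PSGL1hi cells and 0.476 in naive cells, in the order seen for Tnfrsf18. For Cd28 they were Tmem120a (r = 0.983), Fam210b (r = 0.972) and Pde7a (r = 0.968), and for Cd27 Spag7 (r = 0.963), Taf11 (r = 0.956) and Rela (r = 0.954). Cd226 had weaker likenesses, led by H6pd (r = 0.874), as did the flat Tnfrsf9 probe set, led by Zfp105 (r = 0.873). For Tnfrsf9 1428034_a_at, chosen after its values were seen, Ehd4 (r = 0.994) and Srgap3 (r = 0.992) came first. All these values of r share the 12 arrays and the gap between naive and CD44+ arrays.

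The ligands of these receptors were looked at on 1 lead probe set per gene, 8 genes in all. In CD62Llo PSGL1lo against CD62Llo PSGL1hi cells 3 of the 8 were lower and 0 higher, where 4.04% of 18193 lead probe sets were higher and 5.63% lower (9.67% in either direction). Cd86, the ligand of CD28 and CTLA-4, differed by -1.99 ± 0.13 (adjusted p = 2.34e-07), reading 0.380, 0.416 and 0.415 in CD62Llo PSGL1lo cells against 1.904, 1.402 and 1.553 in CD62Llo PSGL1hi cells. Tnfsf4, the ligand of OX40, differed by -1.10 ± 0.19 (adjusted p = 0.00171) and Tnfsf9, the ligand of the Tnfrsf9 receptor, by -0.80 ± 0.20 (adjusted p = 0.0221). Tnfsf4 and Tnfsf9 were thus lower in the population where Tnfrsf4 and the Tnfrsf9 probe sets 1428034_a_at and 1460469_at were lower. The Tnfrsf4 call did not hold in every fit, and Tnfrsf9 1421481_at was flat. Cd28, a receptor gene for Cd86, was not called there, at -0.08 ± 0.12 and -0.22 ± 0.12 on its probe sets. Icosl, the ligand of ICOS, averaged between 0.997 and 1.09 in the 4 populations. Against naive cells 1 ligand gene was higher and 2 were lower in CD62Llo PSGL1lo cells, 4 higher and 1 lower in CD62Llo PSGL1hi cells, and 2 higher and 1 lower in CD62Lhi PSGL1hi cells. Over all lead probe sets 10.7% were higher and 11.2% lower (21.9% in all) in CD62Llo PSGL1lo cells, 10.1% and 8.99% (19.0%) in CD62Llo PSGL1hi cells, and 10.0% and 9.22% (19.2%) in CD62Lhi PSGL1hi cells. Tnfsf9 was higher in all 3 CD44+ populations, by 0.62 ± 0.20 (adjusted p = 0.0433), 1.41 ± 0.20 (adjusted p = 0.000149) and 1.15 ± 0.20 (adjusted p = 0.000874). Tnfsf18 was not analysed here.

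Ctla4, the inhibitory receptor gene between Cd28 and Icos, was higher than naive by 3.18 ± 0.13 in CD62Llo PSGL1lo cells, 2.78 ± 0.13 in CD62Llo PSGL1hi cells and 2.85 ± 0.13 in CD62Lhi PSGL1hi cells (adjusted p of at most 3.28e-09). It read 1.465, 1.170 and 1.202 in CD62Llo PSGL1lo cells and 0.948, 1.137 and 0.835 in CD62Llo PSGL1hi cells, and that difference of 0.40 ± 0.13 did not pass (adjusted p = 0.0992). Cd96, which encodes another receptor for the Cd226 ligand CD155, differed by -2.06 ± 0.12 between CD62Llo PSGL1lo and CD62Llo PSGL1hi cells (adjusted p = 1.17e-07).

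Of 20 other TNF receptor family genes, 1 was higher and 3 were lower in CD62Llo PSGL1lo against CD62Llo PSGL1hi cells, where 4.04% of all lead probe sets were higher and 5.63% lower, with a median of 0.02 beside 0.008 over all lead probe sets. Tnfrsf1b, the gene of TNF receptor type II, differed by -1.83 ± 0.19 (adjusted p = 2.30e-05), while its other probe set differed by -0.17 ± 0.11 (adjusted p = 0.521). Tnfrsf1a differed by -0.55 ± 0.09 (adjusted p = 0.00140) and Tnfrsf13c, the BAFF receptor gene, by -0.43 ± 0.10 (adjusted p = 0.0114). Tnfrsf13b, the gene of TACI, was higher by 0.97 ± 0.13 (adjusted p = 0.000162). Against naive cells the same list had 2 genes higher and 4 lower in CD62Llo PSGL1lo cells, and 2 higher and 5 lower in each PSGL1hi population. Of all lead probe sets 10.7% were higher and 11.2% lower in CD62Llo PSGL1lo cells, 10.1% and 8.99% in CD62Llo PSGL1hi cells, and 10.0% and 9.22% in CD62Lhi PSGL1hi cells.

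Of 19 genes of TRAF and NF-kB signalling, 0 were higher and 3 lower in CD62Llo PSGL1lo against CD62Llo PSGL1hi cells, beside 4.04% and 5.63% of all lead probe sets. Traf1, an adaptor that binds the Tnfrsf9 receptor, differed by -0.63 ± 0.13 (adjusted p = 0.00749), and its other probe set by -0.61 ± 0.11 (adjusted p = 0.00171). It read 0.916, 0.693 and 0.952 in CD62Llo PSGL1lo cells and 1.444, 1.176 and 1.325 in CD62Llo PSGL1hi cells, without overlap. Birc2, the gene of a ubiquitin ligase bound to TRAF proteins, differed by -0.57 ± 0.12 (adjusted p = 0.00597). Ikbkb, a kinase gene of the NF-kB pathway, differed by -0.95 ± 0.11 (adjusted p = 7.42e-05), but its 4 other probe sets ranged from -1.03 to 0.06. Against naive cells 8 were higher and 3 lower in CD62Llo PSGL1lo cells, where 10.7% of all lead probe sets were higher and 11.2% lower. In each PSGL1hi population 9 were higher and 0 lower, where 10.1% (CD62Llo) and 10.0% (CD62Lhi) of all lead probe sets were higher and 8.99% and 9.22% lower. Traf1 was higher than naive by 1.00 ± 0.13, 1.63 ± 0.13 and 1.51 ± 0.13 in CD62Llo PSGL1lo, CD62Llo PSGL1hi and CD62Lhi PSGL1hi cells, and Nfkb2, a subunit of the non-canonical pathway, by 1.09 ± 0.15, 1.16 ± 0.15 and 0.94 ± 0.15 (adjusted p of at most 0.000479 for both genes).

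Of 24 genes of CD28 and ICOS signalling, 2 were higher and 7 lower in CD62Llo PSGL1lo against CD62Llo PSGL1hi cells, beside 4.04% and 5.63% of all lead probe sets. The 2 higher genes were Malt1, a protease gene of the NF-kB pathway, at 1.14 ± 0.25 (adjusted p = 0.00943; 1.32 and 1.70 on its other probe sets), and Zap70, a kinase gene of antigen receptor signalling, at 0.59 ± 0.12 (adjusted p = 0.00592; 0.38 and 0.47 on its other probe sets). Pik3r1, a regulatory subunit of phosphatidylinositol 3-kinase, differed by -0.62 ± 0.12 (adjusted p = 0.00482), and its 3 other probe sets were lower too, from -1.17 to -0.47. Inpp5d, the gene of the lipid phosphatase SHIP-1, differed by -0.74 ± 0.13 (adjusted p = 0.00151) and Tec, a tyrosine kinase gene, by -1.05 ± 0.13 (adjusted p = 8.48e-05). Grap2, an adaptor gene, differed by -1.71 ± 0.17 (adjusted p = 1.42e-05), with -0.31 ± 0.11 (adjusted p = 0.131) on its other probe set. Against naive cells 8 were higher and 4 lower in CD62Llo PSGL1lo cells, 10 higher and 3 lower in CD62Llo PSGL1hi cells and 9 higher and 2 lower in CD62Lhi PSGL1hi cells, where 21.9%, 19.0% and 19.2% of all lead probe sets were called in either direction. Nfatc1, a transcription factor of antigen receptor signalling, led all 3 with 2.57 ± 0.11, 2.28 ± 0.11 and 1.95 ± 0.11 (adjusted p of at most 1.31e-08).

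A list of 7 RNA decay genes was followed, only some of which are known in mice to act on Icos or Tnfrsf4 transcripts. Rc3h1, which encodes Roquin-1, differed by -0.04 ± 0.10 between CD62Llo PSGL1lo and CD62Llo PSGL1hi cells (adjusted p = 0.925). Zc3h12d, of the Regnase family, was higher than naive by 1.47 ± 0.11 in both CD62Llo populations and 1.57 ± 0.11 in CD62Lhi PSGL1hi cells (adjusted p of at most 4.09e-07), and Zc3h12a, which encodes Regnase-1, differed from naive by 0.24 ± 0.11, 0.23 ± 0.11 and 0.18 ± 0.11 without passing. Between CD62Llo PSGL1lo and CD62Llo PSGL1hi cells only Ddx6 of the 7 was called, at -0.85 ± 0.11. Of all lead probe sets 9.67% were called there, 4.04% higher and 5.63% lower. The 3 other Ddx6 probe sets ranged from 0.00 to 0.04. Against naive cells 1 of the 7 was higher and 1 lower in CD62Llo PSGL1lo cells. In CD62Llo PSGL1hi cells 2 were higher and 0 lower, and in CD62Lhi PSGL1hi cells 1 was higher and 0 lower. Of all lead probe sets 21.9%, 19.0% and 19.2% were called in these comparisons.

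Some regulatory T cell markers, though not all of those listed, moved in the same comparison as the TNF receptor family members. Foxp3, the defining transcription factor of regulatory T cells, read 0.182, 0.108 and 0.131 in CD62Llo PSGL1lo cells against 2.249, 1.625 and 1.690 in CD62Llo PSGL1hi cells, a difference of -3.74 ± 0.17 (adjusted p = 9.20e-09). It read 2.372, 1.827 and 2.214 in CD62Lhi PSGL1hi cells and 0.375, 0.367 and 0.359 in naive cells. Of 12 markers, 5 were lower and 1 higher in CD62Llo PSGL1lo against CD62Llo PSGL1hi cells, beside 5.63% and 4.04% of all lead probe sets. The lower ones included Itgae at -4.12 ± 0.22, Klrg1 at -3.69 ± 0.25 and Entpd1 at -1.77 ± 0.17 (limma adjusted p of at most 1.02e-05). The higher one was Nt5e at 0.53 ± 0.14 (limma adjusted p = 0.0256), with 1.03 and -0.18 on its other probe sets. The rest were not called, among them Nrp1 at -0.34 ± 0.11 (limma adjusted p = 0.0826) and Gpr83 at 0.04 ± 0.11 (limma adjusted p = 0.925). Ikzf2, also not called, averaged 1.24 in CD62Llo PSGL1lo and 0.988 in CD62Llo PSGL1hi cells. The mean log2 ratio of the list ran from -0.82 to -0.66 on CD62Llo PSGL1lo arrays, 0.33 to 0.62 on CD62Llo PSGL1hi arrays, 0.25 to 0.50 on CD62Lhi PSGL1hi arrays and -1.60 to -1.54 on naive arrays. The part of these markers in the lower Tnfrsf9, Tnfrsf18 and Tnfrsf4 values was not tested. In CD62Llo PSGL1lo against naive cells 7 of the 12 markers were higher and 2 lower, beside 10.7% and 11.2% of all lead probe sets. Ebi3 differed there by 2.61 ± 0.25, Entpd1 by 2.43 ± 0.17 and Foxp3 by -1.42 ± 0.17 (adjusted p of at most 3.03e-05).

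**Figure D4:**
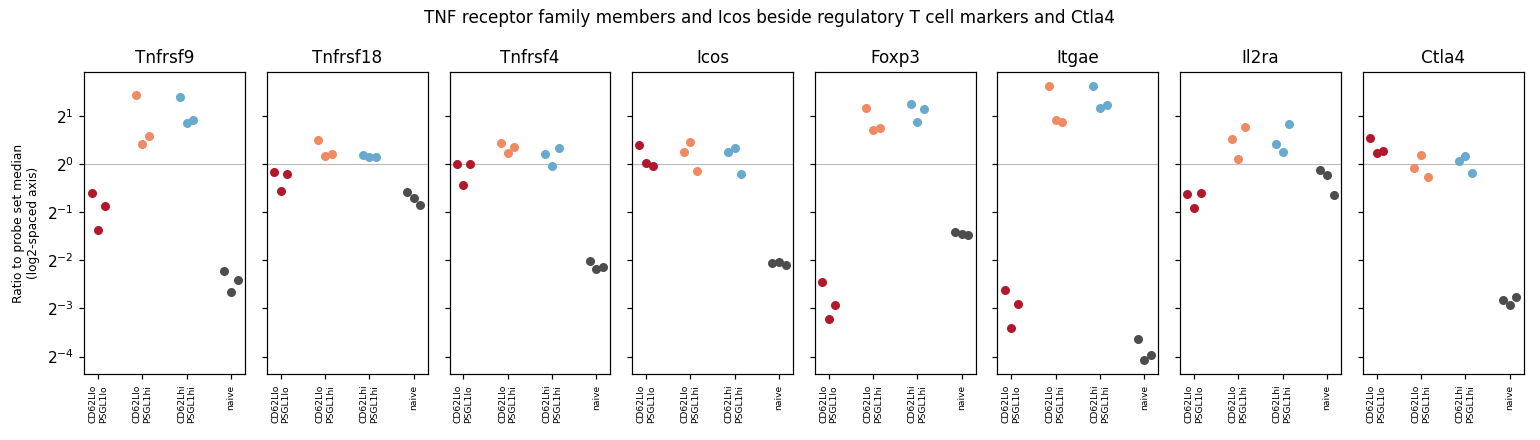
Ratio to the probe set's median over 12 arrays (vertical, log2-spaced axis) for Tnfrsf9 (1428034_a_at), Tnfrsf18, Tnfrsf4 and Icos (1421930_at) beside Foxp3, Itgae, Il2ra and Ctla4; points are arrays of the CD62Llo PSGL1lo, CD62Llo PSGL1hi, CD62Lhi PSGL1hi and naive populations. Foxp3 lies between 0.108 and 0.182 on CD62Llo PSGL1lo arrays and between 1.625 and 2.372 on PSGL1hi arrays, while the Icos arrays of the 3 CD44+ populations overlap. Other listed regulatory T cell markers, Nt5e and those not called among them, are not drawn.

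Markers of other cells also differed between populations. Of 13 myeloid and dendritic cell markers, 1 was higher and 4 lower in CD62Llo PSGL1lo against naive cells, 1 higher and 6 lower in CD62Llo PSGL1hi cells, and 1 higher and 3 lower in CD62Lhi PSGL1hi cells, where 21.9%, 19.0% and 19.2% of all lead probe sets were called in either direction. The higher marker was Cd68, a lysosomal protein gene, at 1.23 ± 0.16, 3.02 ± 0.16 and 3.71 ± 0.16 (adjusted p of at most 5.36e-05). S100a8, a calprotectin subunit gene, averaged 0.882, 1.02 and 0.845 in those populations against 13.1 in naive cells. The mean log2 ratio of the list ran from -0.38 to 0.22 on CD44+ arrays and from 0.56 to 0.61 on naive arrays. Of 8 NK and CD8 T cell markers, 1 was lower in CD62Llo PSGL1lo against CD62Llo PSGL1hi cells, Klrd1 at -4.59 ± 0.31, and of 9 B cell markers 2 were lower, Cd79b and Ms4a1, beside 5.63% of all lead probe sets. Their part in the receptor differences was not tested.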

How the data were processed

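Total RNA of 12 samples was measured on Affymetrix mouse genome arrays. Per the submitters' processing notes the software was MAS5; for its version and scaling, the sources used here give nothing. The deposited values are linear ratios: 99.7% of the 45101 probe sets had a median over the 12 arrays that lay no more than 0.002 from 1. The design had allowed for signals. Because the authors deposited ratios, no pseudocount and no filter on dim probe sets was used, and signal over background is unknown.

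Log2 ratios of the 45037 probe sets that are not array controls were fitted with limma 3.58.1 in R 4.3.3 (lmFit and eBayes, 1 mean per population, all 12 arrays, 8 residual and 5.54 prior degrees of freedom). An F test and 6 two-sided comparisons were made, with Benjamini-Hochberg adjustment over all 45037 probe sets and calls at an adjusted p under 0.05. Errors of differences are standard errors of that fit, with a median of 0.120 over probe sets. The number of arrays limits the precision. The 7 receptor genes, the other gene lists and the comparisons were chosen with earlier results of these data known.

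The platform annotation gave 1 symbol to 34945 probe sets, several to 932 and none listed to 9160. The lead probe set of a gene was one without a cross-hybridisation suffix, then with a curated RefSeq accession, then the lowest numbered, which gave 18193 genes. Genes named were the 7 receptors with all their probe sets, from each list the members with the lowest p (4 at most), and the 3 genes most like each receptor by Pearson's r over 12 arrays; gate genes and Cd4 were checked. Values of further list members and of other probe sets were added after they were seen.

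Same-numbered arrays of the CD44+ populations deviated together from their population means (r from 0.138 to 0.451 over probe sets), and so the numbers were taken to pair these arrays, although no label ties a number to a sort. With naive arrays r ran from -0.082 to 0.157, and the numbers do not pair them. The replicate block was therefore an alternative. Others were quantile normalization, centring of arrays, 1 lead probe set per gene, a robust prior, leaving out the 20% of probe sets with the lowest SD, fitting only the populations compared, and leaving out each array. The fit was tested on simulated data. Python 3.11.15 and matplotlib 3.10.9 drew the figures. Promoter windows came from RefSeq.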

Additional observations from a re-analysis of the deposited data

How the results depend on the processing

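Of 34 receptor differences past the threshold, 29 kept their direction and call under every alternative tried; the 5 others, of Tnfrsf4, Tnfrsf18 and Tnfrsf9, are given with their values above. The replicate block changed no receptor call among 36 differences within the CD44+ populations and none among 36 against naive cells with all 12 arrays blocked, but it moved the count of all probe sets called between CD62Llo PSGL1hi and CD62Lhi PSGL1hi cells to 1089, against 556 without it. That count was 368 with only the 2 populations fitted, 893 after quantile normalization, and between 364 (without CD62Llo PSGL1hi replicate 1) and 714 when an array was left out, with 370 without CD62Llo PSGL1hi replicate 2. The cause was not tested. Between CD62Llo PSGL1lo and CD62Lhi PSGL1hi cells 3274 probe sets were called with only those populations fitted, against 5242. With 1 lead probe set per gene, which tests fewer probe sets by construction, the counts were 1965, 2714, 4224, 3768 and 3766 for CD62Llo PSGL1lo against CD62Llo PSGL1hi, CD62Llo PSGL1lo against CD62Lhi PSGL1hi, and the 3 CD44+ populations against naive, and 5128 in the F test; the receptors called were then 4 of 7 in the F test, 2 and 1 lower between CD44+ populations, and 4, 4 and 4 higher than naive. With an array left out, 3 to 4 receptor probe sets were lower in CD62Llo PSGL1lo against CD62Llo PSGL1hi cells, and 2 to 3 against CD62Lhi PSGL1hi cells. Of all probe sets 2718 to 4029 and 4224 to 5341 were called there in either direction. Against naive, 8 to 10 were higher in CD62Llo PSGL1lo, 9 to 10 in CD62Llo PSGL1hi and 9 to 9 in CD62Lhi PSGL1hi cells. Of all probe sets 7082 to 9322, 5748 to 9078 and 5906 to 8890 were called in these.

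Differences near 0 changed sign without passing the test. After quantile normalization CD62Llo PSGL1lo minus CD62Lhi PSGL1hi was -0.017 for Icos 1421930_at and -0.013 for 1421931_at. With an array left out, Icos 1421930_at ran from -0.104 to 0.234 between CD62Llo PSGL1hi and CD62Lhi PSGL1hi cells, from -0.231 to 0.074 between CD62Llo PSGL1lo and CD62Llo PSGL1hi cells, and from -0.166 to 0.109 between CD62Llo PSGL1lo and CD62Lhi PSGL1hi cells. In that order of comparisons Icos 1421931_at ran from -0.090 to 0.215, -0.208 to 0.055 and -0.150 to 0.090, and Icos 1436598_at, in the first, from -0.121 to 0.091. Between CD62Llo PSGL1lo and CD62Llo PSGL1hi cells Cd27 ran from -0.099 to 0.102 and Tnfrsf9 1421481_at from -0.039 to 0.133. Between CD62Llo PSGL1lo and CD62Lhi PSGL1hi cells Cd27 ran from -0.008 to 0.193, Cd28 1417597_at from -0.042 to 0.135, Cd28 1437025_at from -0.144 to 0.088 and Tnfrsf9 1421481_at from -0.110 to 0.028. Tnfrsf9 1421481_at in CD62Llo PSGL1hi against naive cells ran from -0.042 to 0.131.

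The pseudocount alternative was not run, because it was meant for signals and the values are ratios. Without signals or detection calls it cannot be said which probe sets were above background. With 3 arrays a population the standard error of a difference had a median of 0.120 over probe sets. Of all calls in CD62Llo PSGL1lo against naive cells 52.6% were higher after quantile normalization and 47.5% without it.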
